A study of Mus musculus with 8 samples.

Results

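The 39 genes described here are interferon-stimulated genes and regulators of the interferon response, among them the IFITM family. They were chosen by symbol from a list written for this work, with earlier results of these data known. The deposited counts listed 38 of them among 18957 genes, and *Mx2* was not analysed here. All 38 passed the filter on low counts, as did 13036 genes in all. The counts came from RNA of live, lineage-negative, PDGFRA-positive cells sorted from the ventricles of mice aged 3 to 4 weeks on a C57BL/6 (mixed) background. One genotype was WT, littermates that carried only wild-type alleles (4 libraries). The other was *Pdgfra-Cre:LmnaF/F* (4 libraries), in which a *Pdgfra-Cre* BAC transgene deletes floxed exon 2 of both copies of *Lmna*, the gene for the nuclear lamins A and C. The WT mice did not carry the transgene, so an effect of the Cre transgene and an effect of the *Lmna* deletion cannot be told apart. *Pdgfra* is not active in fibroblasts alone, so the deletion is not limited to them. Whether a library holds 1 mouse or a pool is not given in the sources used here, so the p-values measure the spread between these libraries.

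Interferons are secreted proteins that warn cells of viruses and other microbes. They bind receptors whose Janus kinases phosphorylate STAT proteins, and type I interferons act through a complex that includes STAT2 and IRF9 and binds the interferon-stimulated response element (ISRE) in promoters. Interferon gamma acts at the gamma-activated site (GAS), and the induced proteins block viral entry, degrade viral RNA or attack the vacuoles in which microbes live. Cells can also make interferon when sensors find nucleic acid in the cytosol, the host cell's own DNA included. IFITM1, IFITM2 and IFITM3 are small membrane proteins that hinder the fusion of viruses with cell membranes.

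The promoter sequences of the 3 IFITM genes are shown because 1 of them holds ISRE letters and 2 do not, beside 3 other genes with ISRE letters. Each is a stretch of 120 bases before the RefSeq transcription start (assembly GRCm38.p6), 5′ to 3′ on the strand of the gene, without the bases that an exon of the gene covers in GENCODE M21. Capitals mark the letters searched as an ISRE, GAAANNGAAA on either strand, with overlaps counted. *Ifitm1* (chr7:140967908-140968027, plus strand) and *Ifitm3* (chr7:141010771-141010890, minus strand) hold none, and *Ifitm2* (chr7:140955988-140956107, minus strand) holds 1. GENCODE M21 also places a start of *Ifitm1* upstream of the RefSeq start, at 140967221, and the bases before it were not searched. The others are *Isg15* (chr4:156200819-156200938, minus strand), *Gbp7* (chr3:142530216-142530335, plus strand) and *Igtp* (chr11:58199436-58199555, plus strand).
Ifitm1: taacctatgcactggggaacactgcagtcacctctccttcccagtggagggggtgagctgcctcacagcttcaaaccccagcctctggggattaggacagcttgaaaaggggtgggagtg
Ifitm2: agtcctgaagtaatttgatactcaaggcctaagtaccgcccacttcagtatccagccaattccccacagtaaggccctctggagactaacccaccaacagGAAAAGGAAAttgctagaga
Ifitm3: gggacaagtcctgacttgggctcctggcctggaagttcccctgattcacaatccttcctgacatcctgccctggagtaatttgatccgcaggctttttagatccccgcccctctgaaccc
Isg15: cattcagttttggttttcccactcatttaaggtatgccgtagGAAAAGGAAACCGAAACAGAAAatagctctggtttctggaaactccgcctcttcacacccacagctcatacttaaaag
Gbp7: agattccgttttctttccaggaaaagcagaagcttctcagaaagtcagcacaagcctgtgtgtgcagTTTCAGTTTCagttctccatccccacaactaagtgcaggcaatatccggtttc
Igtp: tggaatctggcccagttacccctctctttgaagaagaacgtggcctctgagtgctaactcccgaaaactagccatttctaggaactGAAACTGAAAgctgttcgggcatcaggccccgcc

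In the 250 bases before the start, 13 of the 30 genes that the RefSeq promoter table holds had ISRE letters (43.3%), against 936 of 27025 genes in the whole table (3.46%). GAS letters, TTCNNNGAA, stood before 6 of the 30 genes (20%), against 8.13% of all genes. All 5 GTPases in the table held ISRE letters, and 0 of the 3 nucleic acid sensors did. A match describes letters in a window and not a bound site. *Ifi27* has no entry in the table.

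**Figure D1:**
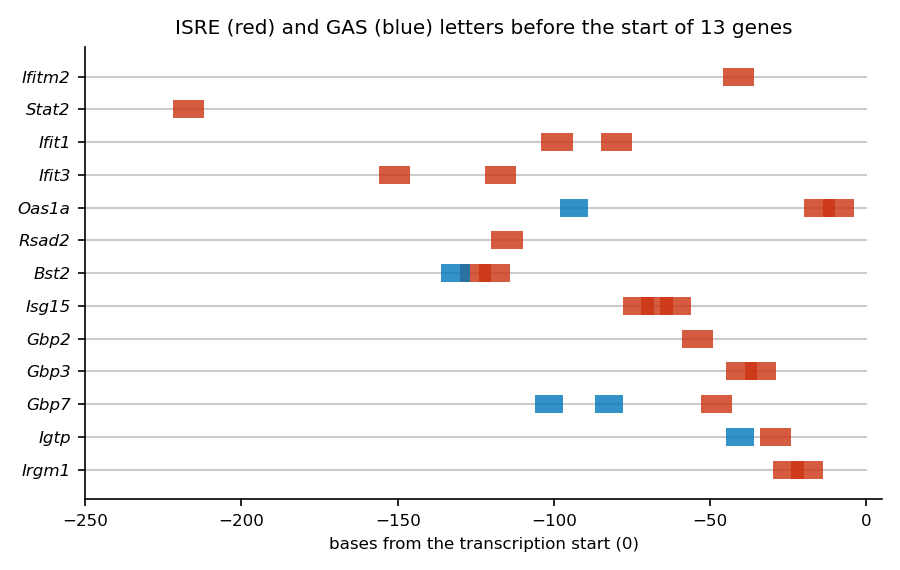
Places of ISRE letters (red) and GAS letters (blue) in the 250 bases before the RefSeq start of the 13 genes that hold ISRE letters. The horizontal axis is the distance from the start in bases, and each row is a gene. In *Gbp2*, *Gbp3*, *Gbp7*, *Igtp* and *Irgm1* the ISRE letters begin within 59 bases of the start, in *Isg15* they begin 78, 72 and 66 bases before it, and in *Stat2* 222 bases before it.

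The question put to these genes was whether fibroblasts that lack *Lmna* differ from WT fibroblasts in the expression of interferon-stimulated genes. In most of them no difference was detected. *Ifitm1* rose 4.28-fold and *Ifi27*, which encodes a small interferon-induced membrane protein of mitochondria and the nuclear envelope, fell 2.12-fold. The other 36 did not pass the test, and among them 12 fold changes lay above 1 and 24 below. The test was the quasi-likelihood test of edgeR over all 13036 genes with Benjamini-Hochberg adjustment, and a gene was called at an adjusted p under 0.05. It called 1 of the 38 higher in *Pdgfra-Cre:LmnaF/F*, where it called 0.169% of all genes higher, and 1 of the 38 lower, where it called 0.238% lower. In either direction it called 0.407% of all genes. Because the list was chosen with earlier results of these data known, its calls do not measure an excess over that share. The median log2 fold change of the 38 genes was −0.10, beside 0.02 over all genes tested. That balance did not hold in every fit. Of the 36 genes, 23 lay above and 13 below without WT replicate 3 (median of the 38 genes 0.08), and 21 above and 15 below with limma-voom on all 8 libraries (median 0.038). Without *Pdgfra-Cre:LmnaF/F* replicate 3 it was 18 and 18, without replicate 4 it was 17 and 19, and with Y-linked expression as a covariate it was 8 and 28.

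At an unadjusted p under 0.05 the same 2 genes passed and no other of the 38, while 11.9% of all genes did. The 4 libraries of a genotype lay all above or all below the 4 of the other for *Ifitm1* and *Ifi27* only, 2 of 38, and for 8.03% of all genes. The 95% interval of the fold change lay within 2-fold for 15 of the 38 genes and within 4-fold for 33, and for the remaining 5 it reached beyond 4-fold. The targeted gene *Lmna* lay between 274 and 483 CPM in WT and between 90.4 and 129.97 CPM in *Pdgfra-Cre:LmnaF/F*, a log2 fold change of −1.72 (SE 0.22, adjusted p = 0.00492 by edgeR). CPM, the unit of all levels given here, are counts relative to the library total after scaling with TMM factors, expressed per 1e+06 counts.

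**Figure D2:**
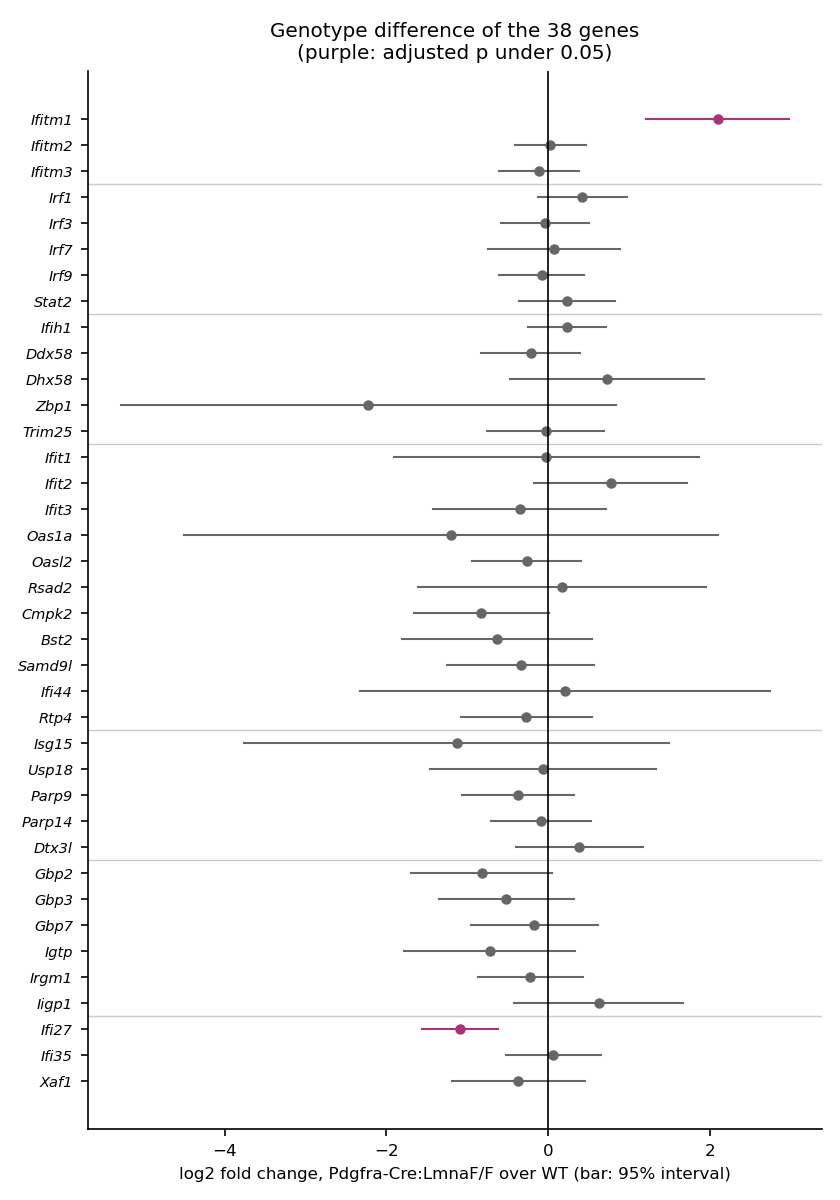
Log2 fold change (*Pdgfra-Cre:LmnaF/F* over WT, horizontal axis) of each of the 38 genes, with the 95% interval as a bar. Genes are grouped by role, and the 2 genes with an adjusted p under 0.05 (edgeR), *Ifitm1* at 2.10 and *Ifi27* at −1.09, are purple.

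Libraries that stood apart are described before the single genes. Total counts per library lay between 2080555 (WT replicate 2) and 12502949 (*Pdgfra-Cre:LmnaF/F* replicate 4). The mesenchymal markers, *Pdgfra* and collagen genes among them, summed to between 42622 and 58999 CPM in every library. In *Pdgfra-Cre:LmnaF/F* replicate 4 the 12 leukocyte and macrophage markers summed to 572 CPM against 60.3 to 208 in the other 7 libraries, and the 8 cardiac myocyte markers to 3286 against 220.1 to 666. Y-linked genes summed to between 143 and 273 CPM in WT replicates 1, 2 and 4 and *Pdgfra-Cre:LmnaF/F* replicate 4, and to between 0.207 and 1.96 in the other 4 libraries, so Y-linked expression was not balanced between the genotypes. Of the lymphocyte markers *Irf8* made up nearly all of the sum, with 58.9 to 127 CPM, and *Cd3e*, *Cd79b* and *Ms4a1* were at 0 in 6 of the 8 libraries each. The mural markers summed to between 236 and 406 CPM in WT and between 207 and 395 in *Pdgfra-Cre:LmnaF/F*, and the erythroid markers to between 16.8 and 666 over all libraries. The endothelial markers summed to between 579.7 and 808 CPM in WT and between 463 and 602 in *Pdgfra-Cre:LmnaF/F*. *Tek* made up most of that sum, with a mean of 473 CPM in WT and 313 in *Pdgfra-Cre:LmnaF/F*. *Vwf* and *Cldn5* had log2 fold changes above 0 (0.40 and 0.27), and those of the other endothelial markers lay below 0. In bulk RNA fewer cells of a type and less RNA per cell cannot be told apart. The 20 genes of a list that responds to tissue dissociation summed to between 2619 and 6066 CPM in WT and between 7988 and 12483 in *Pdgfra-Cre:LmnaF/F*. The part of these differences in the results below was not tested.

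Many of the 38 genes were highest in WT replicate 3. Among the 4 WT libraries it was the highest for 28 of the 38 genes (73.7%), where it was the highest for 31.7% of all genes tested. Among all 8 libraries it was the highest for 18 of the 38 genes (47.4%, against 16.9% of all genes). *Pdgfra-Cre:LmnaF/F* replicate 3 was the lowest of its genotype for 28 of the 38 (73.7%, against 27.4%), and the lowest of all 8 libraries for 19 (50%, against 15%). *Pdgfra-Cre:LmnaF/F* replicate 2 was the highest of its genotype for 19 of the 38 (50%, against 25%). The median ratio of the highest to the lowest WT library was 2.56 for the 38 genes and 1.94 for all genes. In WT 1 library was thus high for many of the genes, and in *Pdgfra-Cre:LmnaF/F* 1 was high and 1 was low.

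**Figure D3:**
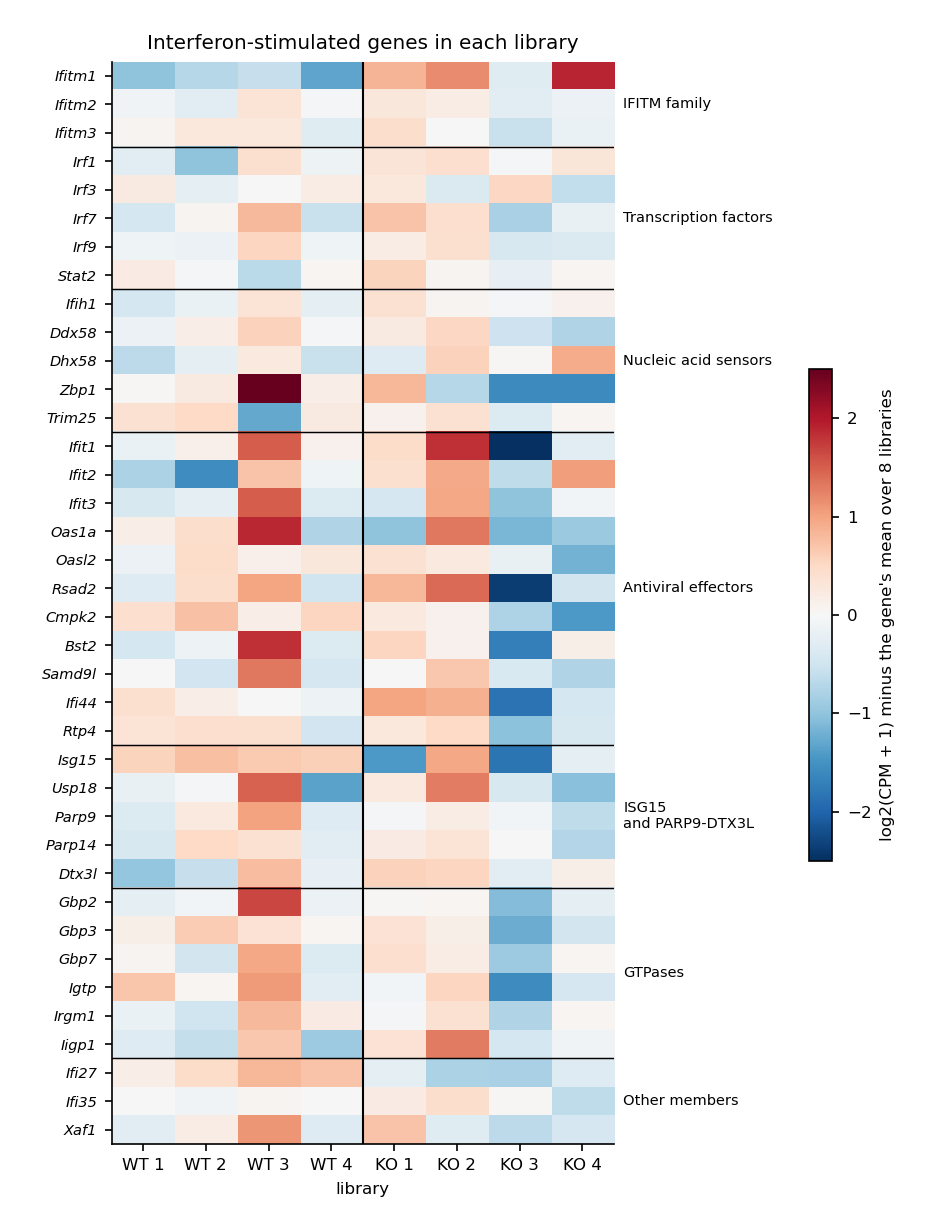
Level of the 38 genes (rows, grouped by role) in the 8 libraries (columns; KO is *Pdgfra-Cre:LmnaF/F*), as log2(CPM + 1) minus the mean of the gene over the 8 libraries, with red higher and blue lower and colours that saturate at 2.5. WT replicate 3 is red for most antiviral effectors and GTPases and *Pdgfra-Cre:LmnaF/F* replicate 3 is blue, while *Ifi27* is red in all WT and blue in all *Pdgfra-Cre:LmnaF/F* libraries, and *Ifitm1* is red in 3 of the 4 *Pdgfra-Cre:LmnaF/F* libraries.

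The role groups are given one by one, and differences between them were not tested. The deviation of a gene in a library is its log2 CPM minus its mean over the 8 libraries. The median deviation in WT replicate 3 was 1.19 among the 11 antiviral effectors, 1.02 among the 5 genes of ISG15 conjugation and the PARP9 complex, 0.90 among the 6 GTPases and 0.83 among *Ifi27*, *Ifi35* and *Xaf1*. It was 0.40 among the 5 transcription factors, 0.34 among the 5 nucleic acid sensors and 0.26 among the 3 IFITM genes. The share of genes with their highest value of the 8 libraries there had another order, with 4 of the 6 GTPases and 2 of *Ifi27*, *Ifi35* and *Xaf1* (66.7% each), 3 of the 5 ISG15 and PARP9 genes (60%), 2 of the 5 transcription factors and 2 of the 5 sensors (40% each), 4 of the 11 antiviral effectors (36.4%) and 1 of the 3 IFITM genes (33.3%). In *Pdgfra-Cre:LmnaF/F* replicate 3 it was −1.08 for the antiviral effectors, −1.02 for the GTPases and −0.68 for *Ifi27*, *Ifi35* and *Xaf1*. In the same library it was −0.35 for the sensors, −0.30 for the IFITM genes, −0.28 for the ISG15 and PARP9 genes and −0.22 for the transcription factors. Over all genes tested the median deviation of these libraries was −0.00 and 0.03. Interferon-stimulated genes outside the list of 38 showed the same library at the top, since WT replicate 3 was the highest of the 8 for 25 of 56 of them (44.6%, against 16.9% of all genes). The lowest was *Pdgfra-Cre:LmnaF/F* replicate 3 for 18 of the 56 (32.1%, against 15%).

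**Figure D4:**
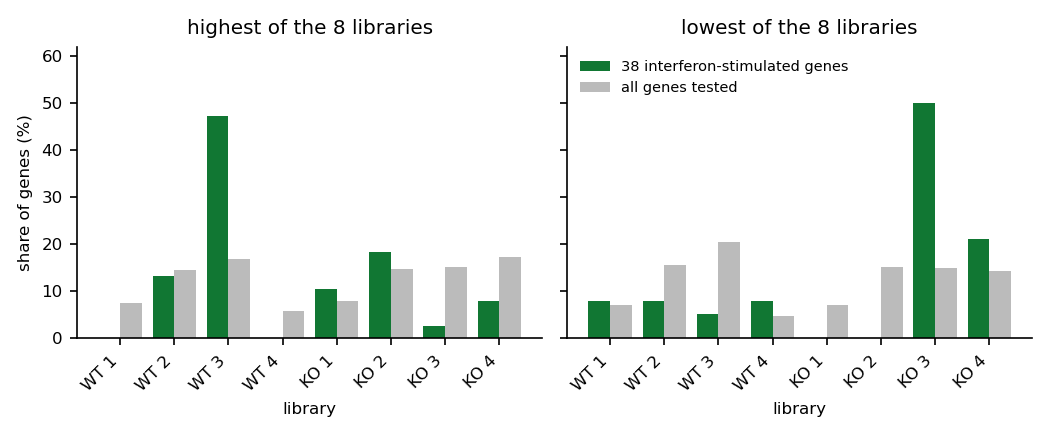
Share of genes (vertical axis, %) for which each library was the highest (left) or the lowest (right) of the 8 (KO is *Pdgfra-Cre:LmnaF/F*), for the 38 interferon-stimulated genes (green) and for all genes tested (grey). WT replicate 3 was the highest for 47.4% of the 38 genes and *Pdgfra-Cre:LmnaF/F* replicate 3 the lowest for 50%.

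Of the 3 IFITM genes, which lie on chromosome 7 (GENCODE M21, mm10), *Ifitm1* alone passed the test. *Ifitm1* (ENSMUSG00000025491.14, positions 140967221 to 140969825, plus strand) is known as the member that reaches the cell surface. In order of replicate number, as for all genes below, it had 10.1, 12.6, 13.9 and 7.97 CPM over the WT libraries and 39.4, 49.6, 17.2 and 82.4 CPM over those of *Pdgfra-Cre:LmnaF/F*. All 4 *Pdgfra-Cre:LmnaF/F* libraries lay above all WT libraries, replicate 3 narrowly and replicate 4 by the most. The means were 11.1 ± 2.63 and 47.2 ± 27.1 CPM (SD, n = 4 each), and the log2 fold change was 2.10 (SE 0.41, adjusted p = 0.0427 by edgeR). These values rest on 25 to 989 counts per library.

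The call of *Ifitm1* depended on single libraries. With 1 library left out at a time, its log2 fold change lay between 1.68 and 2.38, and the adjusted p by edgeR stayed under 0.05 in 1 of 8 fits, that without *Pdgfra-Cre:LmnaF/F* replicate 3 (0.0151). It was 0.128, 0.0994, 0.0590 and 0.137 without WT replicates 1 to 4 and 0.0530, 0.0930 and 0.0858 without *Pdgfra-Cre:LmnaF/F* replicates 1, 2 and 4. Without *Pdgfra-Cre:LmnaF/F* replicate 4, the library with the highest leukocyte and myocyte markers, the log2 fold change was 1.68.

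*Ifitm2* and *Ifitm3* were the most highly expressed of the 38 genes per length. *Ifitm2* (positions 140954837 to 140955987, minus strand) had 267, 236, 361 and 279.7 CPM over the WT libraries and 347, 324, 238 and 256 CPM over those of *Pdgfra-Cre:LmnaF/F*. *Ifitm3* (positions 141009586 to 141010770, minus strand), which restricts influenza virus in endosomes, had 386, 440.3, 441 and 299 CPM over the WT libraries and 498, 373, 252 and 327 CPM over those of *Pdgfra-Cre:LmnaF/F*. The genotypes overlapped in both genes. The log2 fold changes were 0.03 for *Ifitm2* (95% interval −0.41 to 0.47, adjusted p = 0.978 by edgeR) and −0.11 for *Ifitm3* (−0.60 to 0.38, adjusted p = 0.908), intervals that leave room for changes of less than 2-fold.

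**Figure D5:**
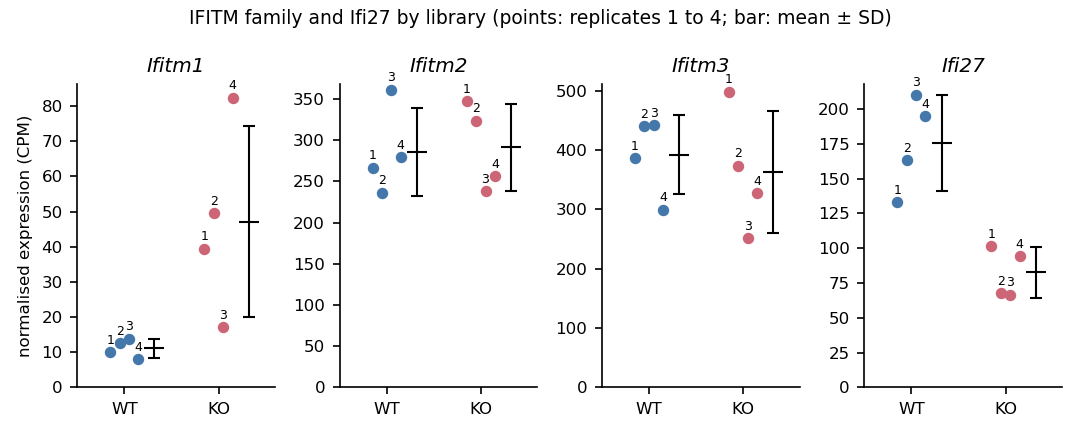
Normalised expression (CPM, vertical axis from 0) of *Ifitm1*, *Ifitm2*, *Ifitm3* and *Ifi27* in WT and *Pdgfra-Cre:LmnaF/F* (KO) libraries. Points are single libraries numbered by replicate, and bars give the mean ± SD (n = 4). The genotypes do not overlap for *Ifitm1* (means 11.1 and 47.2) and *Ifi27* (175 and 82.6), and they overlap for *Ifitm2* and *Ifitm3*.

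Because the 3 genes lie side by side in each library, the counts of *Ifitm1* were also set against those of its neighbours, a comparison chosen after the values were seen and not independent of the fold change above. *Ifitm1* had 2.85% to 5.32% of the counts of *Ifitm2* in WT and 7.21% to 32.2% in *Pdgfra-Cre:LmnaF/F*. The mean log2 ratio was −4.70 ± 0.37 in WT and −2.82 ± 0.91 in *Pdgfra-Cre:LmnaF/F* (SD, n = 4 each). Against *Ifitm3*, the shares were 2.61% to 3.15% in WT and 6.81% to 25.2% in *Pdgfra-Cre:LmnaF/F*. *Ifi27* had 30.7% to 104% of the counts of its relative *Ifi27l2a* in WT and 11.5% to 134% in *Pdgfra-Cre:LmnaF/F*, and there the genotypes overlapped. These ratios do not depend on the scaling of the libraries and are given as a description. The p-values of an exact permutation test on them are left out, because the comparison was chosen after the values were seen.

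The coding sequences of the 3 genes shared 60.2% (*Ifitm1* and *Ifitm2*), 63.5% (*Ifitm1* and *Ifitm3*) and 75.8% (*Ifitm2* and *Ifitm3*) of aligned bases. No 150-base window of an *Ifitm1* or *Ifitm3* transcript occurred in a transcript of another GENCODE gene. Of the 506 windows of *Ifitm2*, 119 (23.5%) also occurred in *Gm45717*, a gene on the same strand with 268 shared exonic bases, so counts of *Ifitm2* may leave out reads from that stretch.

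The transcription factors that carry the interferon signal showed no call. STAT2 and IRF9 are parts of the factor that reads the ISRE, IRF3 and IRF7 start interferon transcription after sensing, and IRF1 acts downstream of interferon gamma. Of the 5 genes, 3 had log2 fold changes above 0 and 2 below, between −0.08 (*Irf9*) and 0.43 (*Irf1*), and all 5 intervals lay within 2-fold. *Irf1*, with the lowest p of the group, had 66.9, 40.3, 107 and 75.0 CPM over the WT libraries and 103, 109, 79.4 and 100.1 CPM over those of *Pdgfra-Cre:LmnaF/F*. WT replicate 3 lay among the *Pdgfra-Cre:LmnaF/F* libraries and the other 3 WT libraries lay below them. The means were 72.4 ± 27.6 and 97.9 ± 12.9 CPM (SD, n = 4 each; unadjusted p = 0.120, adjusted p = 0.568 by edgeR). The *Irf7* libraries lay between 19.8 and 53.0 CPM in WT and between 16.5 and 49.1 CPM in *Pdgfra-Cre:LmnaF/F*.

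None of the 5 nucleic acid sensors and cofactors passed. *Ifih1* (MDA5) and *Ddx58* (RIG-I) encode sensors of viral double-stranded RNA, *Dhx58* (LGP2) their relative, *Trim25* a ubiquitin ligase that acts with RIG-I, and *Zbp1* a sensor of Z-form nucleic acid. Their log2 fold changes were 0.23 (SE 0.23) for *Ifih1*, −0.21 (SE 0.29) for *Ddx58*, 0.73 (SE 0.56) for *Dhx58* and −0.03 (SE 0.34) for *Trim25*. *Zbp1* had 2.06, 2.52, 17.3 and 2.38 CPM over the WT libraries and 4.34, 0.834, 0 and 0 CPM over those of *Pdgfra-Cre:LmnaF/F*, from at most 108 counts in a library. WT replicate 3 stood far above the others, and a count of 0 allows up to 3 counts in the 2 libraries without reads. The log2 fold change of −2.22 had an SE of 1.43 (adjusted p = 0.596 by edgeR), and it was −0.83 without WT replicate 3 and −4.39 without *Pdgfra-Cre:LmnaF/F* replicate 1. *Trim25* was at its lowest of all libraries in WT replicate 3, with 15.2 CPM there and 54.8 CPM in the highest WT library.

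Of the 11 antiviral effectors analysed, 3 had log2 fold changes above 0 and 8 below, with a median of −0.27, and none passed. The IFIT proteins bind foreign RNA, OAS1A makes the second messenger that activates RNase L, and viperin (*Rsad2*) makes a chain-terminating nucleotide, next to which *Cmpk2*, a nucleotide kinase, lies in the genome. *Cmpk2*, with the lowest p of the group, had 26.2, 32.7, 21.9 and 28.3 CPM over the WT libraries and 23.0, 20.9, 10.9 and 6.50 CPM over those of *Pdgfra-Cre:LmnaF/F*. A single pair of values crossed, *Pdgfra-Cre:LmnaF/F* replicate 1 above WT replicate 3. The means were 27.3 ± 4.50 and 15.3 ± 7.88 CPM (SD, n = 4 each) and the log2 fold change was −0.83 (SE 0.39, unadjusted p = 0.0520, adjusted p = 0.427 by edgeR). Its neighbour *Rsad2* had a log2 fold change of 0.18 (SE 0.83).

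*Ifit2* had the largest fold change above 1 of the effectors, with a log2 fold change of 0.77 (SE 0.44, adjusted p = 0.535 by edgeR) and WT libraries from 10.6 to 54.2 CPM that overlapped the *Pdgfra-Cre:LmnaF/F* libraries from 20.7 to 68.7 CPM. *Ifit1* and *Ifit3*, its neighbours on chromosome 19, had log2 fold changes of −0.02 (SE 0.88) and −0.35 (SE 0.50). *Ifit1* ranged from 0 to 41.2 CPM within *Pdgfra-Cre:LmnaF/F*. *Bst2*, which encodes tetherin and holds budding viruses at the cell surface, lay at 76.9 CPM in WT replicate 3 and at 19.1 CPM or less in the other WT libraries, and its log2 fold change was −0.63 (SE 0.55), or 0.30 without WT replicate 3. *Samd9l* had −0.34 (SE 0.43), *Rtp4* −0.27 (SE 0.38), *Oasl2* −0.26 (SE 0.32) and *Ifi44* 0.21 (SE 1.18). *Oas1a*, at 7.19 CPM or less in every library, had −1.20 (SE 1.55), which was −0.055 without WT replicate 3 and −4.68 without *Pdgfra-Cre:LmnaF/F* replicate 2. Of its 150-base windows 32.4% also occur in *Oas1g*. *Ifit3* shares 18.5% of its windows with *Ifit3b*, so counts of both may be incomplete.

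ISG15 is a ubiquitin-like protein that is attached to other proteins and removed by USP18, and PARP9 and DTX3L form an ADP-ribosylation and ubiquitin ligase complex that responds to interferon and DNA damage. None of these 5 genes passed, with 1 log2 fold change above 0 and 4 below. *Parp9*, with the lowest p of the group, had 27.8, 42.3, 72.7 and 28.2 CPM over the WT libraries and 34.4, 40.6, 33.8 and 22.7 CPM over those of *Pdgfra-Cre:LmnaF/F*. The genotypes overlapped and WT replicate 3 was the highest, and the log2 fold change was −0.37 (SE 0.33, adjusted p = 0.732 by edgeR), or 0.017 without WT replicate 3. *Dtx3l*, on the opposite strand with 458 shared exonic bases, had 0.39 (SE 0.37). The libraries were strand-specific, but the paper's methods do not say whether reads were counted by strand. *Isg15* lay between 4.20 and 5.03 CPM in WT and between 0 and 5.94 CPM in *Pdgfra-Cre:LmnaF/F*, at most 57 counts in a library, and its log2 fold change of −1.13 had an SE of 1.23. It was −2.52 without *Pdgfra-Cre:LmnaF/F* replicate 2, and −0.78 and −0.72 without *Pdgfra-Cre:LmnaF/F* replicates 1 and 3. *Usp18* and *Parp14* had −0.06 (SE 0.66) and −0.09 (SE 0.29).

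The guanylate-binding proteins and immunity-related GTPases attack the vacuoles of intracellular microbes and are mostly induced by interferon gamma. None of the 6 passed, with 5 log2 fold changes below 0 and 1 above and a median of −0.37. *Gbp2*, with the lowest p of the group, had 41.3, 46.3, 156 and 43.9 CPM over the WT libraries and 49.7, 49.9, 22.3 and 41.1 CPM over those of *Pdgfra-Cre:LmnaF/F*. WT replicate 3 was 3.37 times as high as the next WT library, and without it the WT libraries lay within the range of the other genotype. The means were 71.8 ± 56.0 and 40.8 ± 12.95 CPM (SD, n = 4 each), with a log2 fold change of −0.82 (SE 0.41, unadjusted p = 0.0634, adjusted p = 0.457 by edgeR) that was −0.11 without WT replicate 3. The others were *Igtp* at −0.72 (SE 0.50), *Gbp3* at −0.51 (SE 0.39), *Irgm1* at −0.22 (SE 0.31), *Gbp7* at −0.17 (SE 0.37) and *Iigp1* at 0.63 (SE 0.49).

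*Ifi27* (ENSMUSG00000064215.13, chromosome 12, positions 103434211 to 103440239, plus strand) was the gene of the list that fell. It had 133, 163, 210.3 and 195 CPM over the WT libraries and 102, 67.7, 66.7 and 94.4 CPM over those of *Pdgfra-Cre:LmnaF/F*, and the genotypes did not overlap. The means were 175 ± 34.4 and 82.6 ± 18.04 CPM (SD, n = 4 each), and the log2 fold change was −1.09 (SE 0.22, adjusted p = 0.0471 by edgeR), from 324 to 1882 counts per library. With 1 library left out at a time the log2 fold change lay between −1.21 and −0.99. The adjusted p by edgeR was 0.0484 and 0.0374 without *Pdgfra-Cre:LmnaF/F* replicates 1 and 4, and 0.124 and 0.175 without replicates 2 and 3. Without WT replicates 1 to 4 it was 0.0696, 0.0994, 0.0917 and 0.163. Of the remaining genes, *Ifi35*, which encodes a leucine zipper protein, varied least of the 38 genes among WT libraries, from 29.7 to 33.4 CPM, and had a log2 fold change of 0.06 (SE 0.27). *Xaf1*, which binds the apoptosis inhibitor XIAP, had −0.37 (SE 0.38).

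Levels can be compared between genes as CPM per kilobase of exon. In WT the mean was 578 for *Ifitm3* and 437 for *Ifitm2*, followed by 119 for *Ifi27* and 35.3 for *Bst2*, and the lowest was 0.473 for *Ifi44*. *Ifitm1* had 10.2 in WT and 43.1 in *Pdgfra-Cre:LmnaF/F*, so it remained far below its 2 neighbours in both genotypes. In *Pdgfra-Cre:LmnaF/F*, *Ifi27* had 56.3 and *Ifitm2* and *Ifitm3* had 445 and 535.

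With 1 library left out, fewer libraries are compared and the share of all genes without overlap was higher in each of the 8 fits, so the counts among the 38 genes are given beside it. Without WT replicate 3 it was 5 of the 38 (13.2%, against 13.3% of all genes), *Irf1*, *Ifih1* and *Ifitm1* higher and *Cmpk2* and *Ifi27* lower in *Pdgfra-Cre:LmnaF/F*. In that fit 0 of the 38 passed by edgeR, with 7 at an unadjusted p under 0.05 (18.4%, against 11.9% of all genes). Without *Pdgfra-Cre:LmnaF/F* replicate 1 it was 4 genes (10.5%, against 13.4%), with *Cmpk2* and *Zbp1* lower, and without replicate 2 it was 4 (10.5%, against 11.7%), with *Isg15* and *Oas1a* lower. None of these added genes passed the test of edgeR in those fits. WT replicate 3 and *Pdgfra-Cre:LmnaF/F* replicate 4 were also left out together, a choice made after seeing the data. That gave a median log2 fold change of 0.22 and 6 genes without overlap (15.8%, against 20.4% of all genes). At an adjusted p under 0.05 by edgeR 0 of the 38 passed, with 6 at an unadjusted p under 0.05 (15.8%, against 12.9% of all genes).

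The other genes of the interferon pathway were read from 3 lists that leave out the 38 genes. None of the 101 tested passed, where 0.407% of all genes did. By edgeR 11 of the 101 had an unadjusted p under 0.05 (10.9%, against 11.9% of all genes), 5 higher and 6 lower. DESeq2 called 3 pathway genes, where it called 2.58% of all genes. Among the 22 tested receptors, kinases, STAT proteins and regulators, the genotypes did not overlap for *Socs3*, which encodes a feedback inhibitor of cytokine receptors, *Jak2* and *Stat3*, 3 of 22 (13.6%). It was 2 of 24 (8.33%) for nucleic acid sensing, 2 of 56 (3.57%) for other interferon-stimulated genes and 7 of 101 (6.93%) over the 3 lists, where 8.03% of all genes did not overlap. *Socs3* lay between 47.7 and 151 CPM in WT and between 207 and 343 CPM in *Pdgfra-Cre:LmnaF/F* (log2 fold change 1.48, SE 0.31, adjusted p = 0.0627 by edgeR), and it is also in the dissociation list. Without WT replicate 3 it passed in edgeR, the single pathway gene to do so with 1 library left out. *Jak2* lay between 47.3 and 56.2 CPM in WT and between 69.2 and 96.0 CPM in *Pdgfra-Cre:LmnaF/F* (0.66, SE 0.20, adjusted p = 0.194 by edgeR). *Stat3* lay between 193 and 276 CPM in WT and between 284 and 379 CPM in *Pdgfra-Cre:LmnaF/F* (0.45, SE 0.19, adjusted p = 0.370 by edgeR). These factors also serve cytokines other than interferon.

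Among the 24 tested genes of nucleic acid sensing upstream of interferon, endosomal receptors and their adaptors included, *Ticam1*, the adaptor of the endosomal RNA receptor TLR3, lay between 29.6 and 57.4 CPM in WT and between 18.2 and 27.5 CPM in *Pdgfra-Cre:LmnaF/F* (log2 fold change −1.03, SE 0.28, adjusted p = 0.134 by edgeR). *Rnaseh2b* and *Rnaseh2c*, both subunits of ribonuclease H2, had log2 fold changes of opposite sign, 0.89 (SE 0.37, adjusted p = 0.360 by edgeR) and −0.73 (SE 0.32, adjusted p = 0.396). Among the 56 other interferon-stimulated genes tested, 37 had log2 fold changes below 0 and the median was −0.20. *Ly6e*, which restricts coronaviruses, lay between 265 and 547 CPM in WT and between 67.3 and 192 CPM in *Pdgfra-Cre:LmnaF/F* (−1.28, SE 0.32, adjusted p = 0.116 by edgeR). *Apobec3*, a cytidine deaminase that acts on retroviruses, had −0.90 (SE 0.37, adjusted p = 0.349 by edgeR), and *Pml*, the scaffold of nuclear bodies, had −0.66 (SE 0.28, adjusted p = 0.367).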

How the data were processed

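RNA of sorted PDGFRA-positive cells was sequenced as 8 ribosome-depleted, strand-specific libraries, 4 per genotype, with 150 bp paired-end reads and a RIN above 8. Genotype and replicate number were taken from the labels. The deposited values are whole-number counts per gene symbol with unequal library totals, made by the authors with HISAT2 (genome mm10) and featureCounts (GENCODE annotation). Their methods also name RUV normalization, and whether the counts already carry it is not given in the sources used here.

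Genes were kept with filterByExpr (13036 of 18957), scaled with TMM factors and tested by quasi-likelihood (edgeR 4.0.16, R 4.3.3). The model held genotype alone, and p-values were adjusted by Benjamini-Hochberg over all genes tested. Gene positions and exon lengths came from GENCODE M21, which held 18918 of the symbols. Depth is 2080555 to 12502949 counts, and limits of 3 counts cover counting error only. The alternatives were DESeq2 1.42.0, RLE or upper-quartile factors, limma-voom with sample quality weights (limma 3.58.1), no filter or at least 10 counts in every library, 1 RUVr factor, the replicate block, Y-linked expression as a covariate and leaving out each library. Python 3.11.15 and Biopython 1.88 were used for sequences.

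The genes and lists were chosen with earlier results of these data known. Values in every library are given for the IFITM genes, for each of the 38 genes with an adjusted or unadjusted p under 0.05 or genotypes that do not overlap, and for the lowest p of each role group, and of each pathway list the 3 lowest p are named. Other genes are given by fold change or range, some of them chosen after their values were seen.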

Additional observations from a re-analysis of the deposited data

Results flagged for a closer look

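In 15 of 112 groups of 4 libraries (13.4%), 1 library lay far from the other 3, by the 95% critical value of Dixon's test for the gap between 1 sample and the rest. That critical value is for independent, normally distributed values. These groups hold untransformed CPM and share the same libraries, so the share that chance would give is not known. WT replicate 3 was the high library in 7 of them, all interferon-stimulated genes. It had 116 CPM of *Irf9* (others 72.0 to 74.4), 17.3 of *Zbp1* (2.06 to 2.52), 32.9 of *Ifit1* (9.62 to 12.1) and 64.2 of *Ifit3* (16.4 to 18.6). It also had 76.9 CPM of *Bst2* (15.2 to 19.1), 66.6 of *Samd9l* (18.6 to 26.4) and 156 of *Gbp2* (41.3 to 46.3). It was the WT library in which Y-linked genes summed to 0.320 CPM, against 143 to 229.6 in the other 3, and the leukocyte and macrophage markers to 208 CPM, against 60.3 to 178. *Lyz2* alone held 134 of the 208 CPM, and the other markers were mixed. *Cd68* (0 CPM) and *Csf1r* (3.52 CPM) were at their lowest of the WT libraries there, and *Ptprc* (7.99 CPM) and *Adgre1* (10.5 CPM) at their highest. The part of Y-linked expression or of these markers in the values of WT replicate 3 was not tested.

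WT replicate 4 was low for *Rtp4*, at 15.1 CPM against 27.6 to 29.2. *Pdgfra-Cre:LmnaF/F* replicate 2 was high for *Oas1a*, at 4.48 CPM against 0 to 0.167. *Pdgfra-Cre:LmnaF/F* replicate 3 was high for *Rnaseh2b*, at 31.8 CPM against 16.9 to 19.3. *Pdgfra-Cre:LmnaF/F* replicate 4 was high for *Socs3* (343 CPM against 207 to 223), for the summed leukocyte and macrophage markers (572 CPM against 64.5 to 135), for the cardiac myocyte markers (3286 CPM against 220.1 to 414) and for Y-linked genes (273 CPM against 0.207 to 1.96). *Pdgfra-Cre:LmnaF/F* replicate 1 was high for the erythroid markers, at 666 CPM against 16.8 to 45.01.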

How the results depend on the processing

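Of the 38 genes, 2 passed with edgeR, DESeq2, limma-voom, RLE factors, both other filters, 1 RUVr factor and the Y-linked covariate, in each case *Ifitm1* and *Ifi27*. With upper-quartile factors 1 passed, since *Ifi27* reached an adjusted p of 0.0502. With 1 library left out 0 to 1 passed. Without WT replicate 3 and *Pdgfra-Cre:LmnaF/F* replicate 4 together, a choice made after seeing the data, 0 passed. By edgeR 6 then had an unadjusted p under 0.05 (15.8%, against 12.9% of all genes). Those fits also have fewer libraries. The labels do not say whether replicate numbers pair the libraries. The deviations of libraries with the same number correlated at −0.030 to 0.040, and those with different numbers at −0.034 to 0.038. A pairing was thus not seen, and a shared litter or day was not tested. With the replicate block 0 of the 38 passed, with *Ifitm1* at 1.92 (adjusted p = 0.125 by edgeR) and *Ifi27* at −1.09 (adjusted p = 0.104). The 2 genes kept their direction in each of these fits.

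Of the pathway genes outside the list, 3 passed with DESeq2 (*Socs3*, *Ticam1*, *Ly6e*), 2 without a filter (*Socs3*, *Ly6e*) and 1, *Socs3*, with limma-voom, the filter of 10 counts, 1 RUVr factor, the replicate block, the Y-linked covariate or both libraries left out. With 1 library left out 0 to 1 passed, the 1 without WT replicate 3. Among all genes 53 passed with edgeR, 303 with DESeq2, 126 with limma-voom, 274 without a filter, 81 with 1 RUVr factor, 114 with the Y-linked covariate, 130 without both libraries and 13 to 76 with 1 library left out. The numbers over all genes with RLE or upper-quartile factors, the filter of 10 counts and the replicate block are not given here. Calls in those fits are therefore without a background. The genotypes did not overlap for 2 of the 38 genes (8.03% of all genes), for 2 to 5 with 1 library left out (10.2% to 13.4% of all genes) and for 6 without both (20.4% of all genes). The cause of these shifts was not tested.

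The sign of the log2 fold change differed in at least 1 alternative for 21 of the 38 genes and in none for 17, and no gene with a changed sign was called in the main comparison. With the Y-linked covariate it was −0.12 for *Ifitm2*, −0.20 for *Irf7*, 0.43 for *Trim25*, −0.38 for *Rsad2*, −0.14 for *Ifi44* and −0.21 for *Ifi35*. With limma-voom it was 0.010 for *Ifitm3*, 0.053 for *Irf9*, 0.039 for *Ifit3*, 0.13 for *Bst2*, 0.065 for *Samd9l*, −0.68 for *Ifi44*, 0.75 for *Usp18*, 0.031 for *Parp9*, 0.13 for *Parp14*, 0.17 for *Gbp7* and 0.14 for *Xaf1*. Without both libraries it was 0.11 for *Irf3*, 0.22 for *Irf9*, 0.14 for *Ddx58*, 0.77 for *Ifit1*, 0.44 for *Ifit3*, 0.32 for *Oas1a*, 0.24 for *Bst2*, 0.45 for *Samd9l*, 1.08 for *Usp18*, 0.17 for *Parp9*, 0.22 for *Parp14*, 0.23 for *Gbp7*, 0.048 for *Irgm1* and 0.18 for *Xaf1*. With 1 RUVr factor it was 0.14 for *Trim25* and 0.089 for *Usp18*, and with the replicate block 0.083 for *Trim25*, −0.15 for *Rsad2*, −0.56 for *Ifi44* and 0.085 for *Usp18*. With 1 library left out the sign changed within these ranges: *Ifitm2* from −0.074 to 0.15, *Ifitm3* from −0.31 to 0.031, *Irf3* from −0.26 to 0.12, *Irf7* from −0.19 to 0.46, *Irf9* from −0.25 to 0.11, *Trim25* from −0.31 to 0.12, *Ifit1* from −1.03 to 0.56, *Ifit3* from −0.88 to 0.40, *Rsad2* from −0.49 to 0.60, *Bst2* from −0.89 to 0.30, *Samd9l* from −0.68 to 0.26, *Ifi44* from −0.25 to 0.62, *Usp18* from −0.71 to 0.79, *Parp9* from −0.54 to 0.017, *Parp14* from −0.22 to 0.10, *Gbp7* from −0.34 to 0.24, *Irgm1* from −0.39 to 0.077, *Ifi35* from −0.093 to 0.24 and *Xaf1* from −0.77 to 0.069.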
